A study of Drosophila melanogaster with 20 samples.

Results

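The 10 genes described here are genes by which fly blood cells are recognised, followed in nascent RNA of Kc167 cells, a line made from *Drosophila* embryos. They were chosen by symbol, *srp*, *ush*, *Hml*, *Pxn*, *vkg*, *Col4a1*, *crq*, *NimC1*, *Sr-CI* and *drpr*, and all 10 had a row among the 17659 genes of the deposited table. The series holds 20 samples, 4 of which have a column used here. GAF knockdown cells received dsRNA against GAF, the GAGA factor encoded by *Trl* (replicates 2 and 3). Mi-2 knockdown cells received dsRNA against the chromatin remodeler Mi-2 (replicates 1 and 2). All 4 libraries come from the same line, labelled as a female embryonic line of dorsal closure stage. Nascent RNA was tagged over 1 h with 0.2 mM of the uridine analog EU, captured on beads and read as 50 bp single ends. Mock-treated libraries were not analysed here, so a gene that is higher in one knockdown may have moved in either of them.

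Blood cells of the fly embryo, called hemocytes, are mostly plasmatocytes, which resemble macrophages. They clear dying cells and microbes with surface receptors, help hemolymph to clot, and secrete much of the collagen IV that is laid down in basement membranes. The GATA factor Serpent starts this program in the embryonic head mesoderm, and its cofactor U-shaped restrains the alternative crystal cell fate. The 10 genes cover these roles, with *srp* and *ush* as regulators, *Hml*, *Pxn*, *vkg* and *Col4a1* as secreted clotting and matrix proteins, and *crq*, *NimC1*, *Sr-CI* and *drpr* as receptors.

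Counts on genes ranged from 6111424 to 12563919 in the GAF knockdown libraries and from 3966515 to 5686837 in the Mi-2 knockdown libraries. The labels do not say whether replicates came from separate cultures, so p-values measure the spread between these libraries only. Replicates differed beyond counting noise, the chi-square divided by its degrees of freedom being 9.81 for the GAF knockdown pair and 9.88 for the Mi-2 knockdown pair. Of the targeted genes, *Mi-2* had 435 and 441 CPM (the usual scaling of counts to a common library total) in the GAF knockdown and 300 and 303 CPM in the Mi-2 knockdown, and its log2 ratio of GAF over Mi-2 was 0.50 (standard error 0.0931, adjusted p = 0.0109). *Trl* had 7.04 and 11.0 CPM in the GAF knockdown and 13.4 and 12.0 CPM in the Mi-2 knockdown, which did not pass the test (adjusted p = 0.566). Nascent *Trl* thus gives no check of the GAF knockdown label.

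Levels of the hemocyte genes were very uneven. Together they took 0.609% of the counts in GAF knockdown replicate 2 (95% exact binomial interval 0.603 to 0.615%) and 0.593% in replicate 3 (0.589 to 0.597%). In the Mi-2 knockdown they took 0.532% in replicate 1 (0.525 to 0.540%) and 0.545% in replicate 2 (0.539 to 0.551%). These intervals cover counting error only. The genes *srp*, *ush*, *Hml* and *Pxn* held between 97.1% and 97.4% of these counts in each library. Among the 7826 genes tested, *srp* ranked 40 by mean CPM, *ush* 53, *Hml* 70 and *Pxn* 365.

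**Figure D1:**
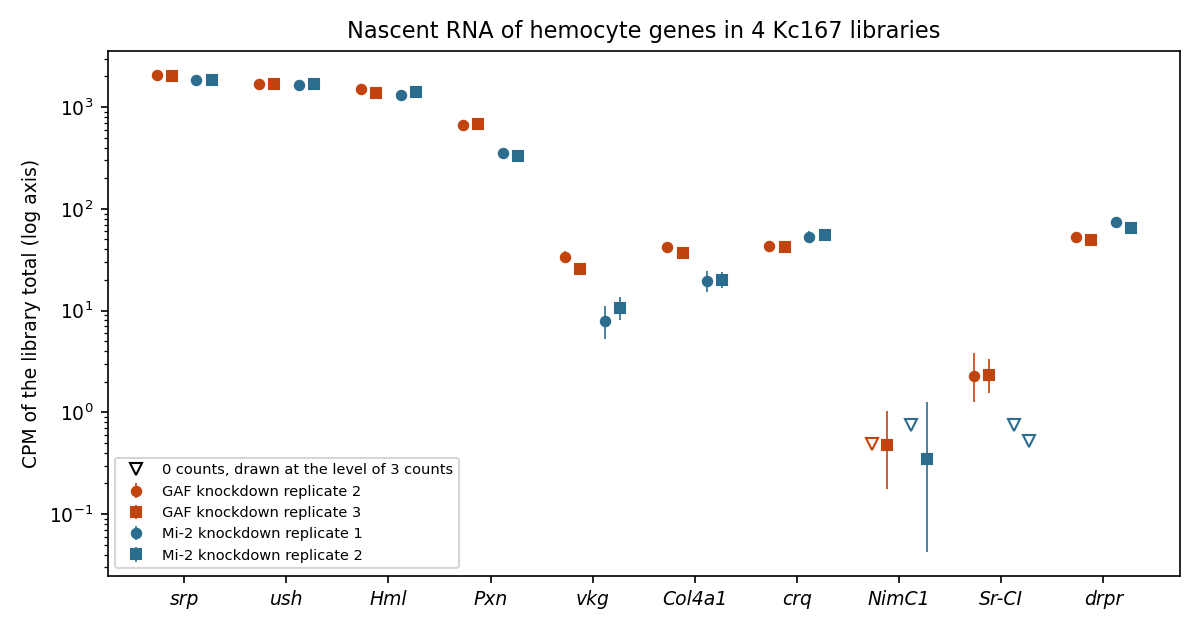
CPM of each of the 10 genes (horizontal axis) in the 4 libraries, on a log axis, with GAF knockdown libraries to the left of Mi-2 knockdown libraries. Bars are 95% exact binomial intervals for counting error, and open triangles stand for 0 counts, drawn at the level of 3 counts. *Pxn*, *vkg* and *Col4a1* lie higher in both GAF knockdown libraries, while *srp*, *ush* and *Hml* lie close together in all 4.

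Long genes collect more nascent reads, so levels of different genes were set side by side only as CPM per kb of gene body not shared with another gene on the same strand. On this scale *srp* stood at 194 ± 2.59 CPM per kb in the GAF knockdown and 177 ± 0.820 in the Mi-2 knockdown (SD, n = 2 each), and its mean lay above that of 98.9% of 7695 tested genes. *Hml* followed at 104 ± 5.67 CPM per kb in the GAF knockdown and 97.6 ± 6.06 in the Mi-2 knockdown (SD, n = 2 each), above 97.1% of genes. The median tested gene had 15.6 CPM per kb. *ush*, at 26.99 ± 0.0260 in the GAF knockdown and 26.9 ± 0.507 in the Mi-2 knockdown (SD, n = 2 each), and *Pxn*, at 24.6 ± 0.159 in the GAF knockdown and 12.5 ± 0.472 in the Mi-2 knockdown (SD, n = 2 each), lay nearer the middle, above 72.2% and 57.1% of genes. *crq* averaged 10.1 CPM per kb over the 4 libraries, *drpr* 4.70, *Col4a1* 3.84 and *vkg* 1.21. The order was the same in all 4 libraries from *srp* down to *drpr*, with no overlap between neighbours. *drpr* and *Col4a1* overlapped and changed places, with *Col4a1* the higher in 2 of the 4 libraries. *Sr-CI*, at 0.469 CPM per kb, and *NimC1*, at 0.0574, came last, and their ranges overlapped. The ranges of *vkg* and *Sr-CI* overlapped too, with *vkg* the higher in all 4 libraries. The share of exons in gene length ran from 10.4% in *ush* to 91.1% in *NimC1* (84.3% in *Hml*). The part of this share in the order was not tested.

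**Figure D2:**
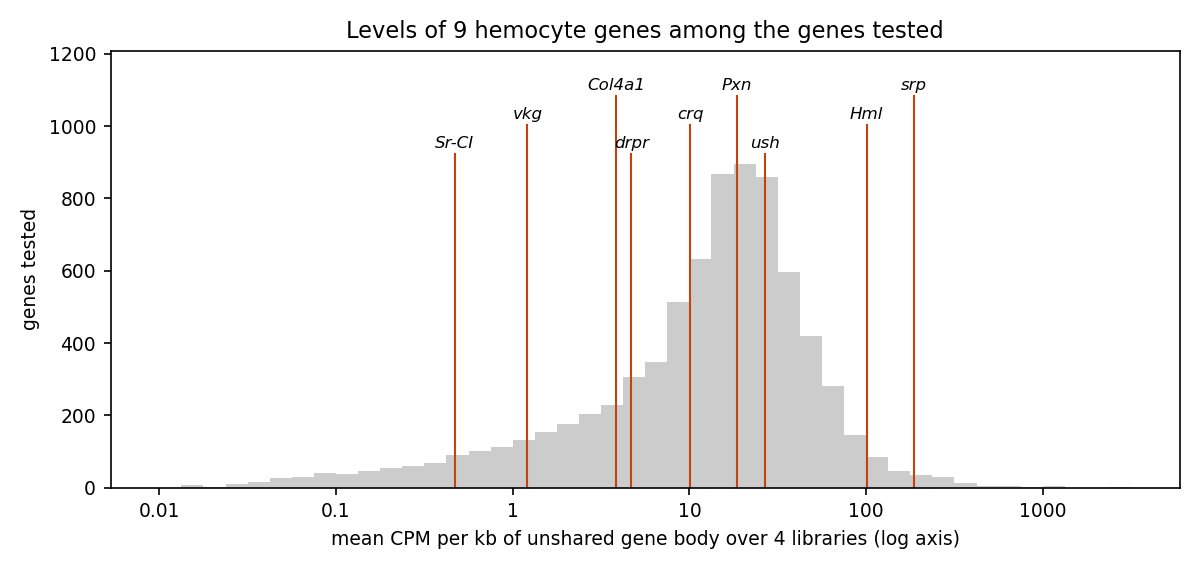
Distribution of the mean CPM per kb of unshared gene body over the 4 libraries for the tested genes (grey bars, log axis), with orange lines at 9 hemocyte genes. *srp* and *Hml* stand in the right tail above 97.1% of genes or more, and *vkg* and *Sr-CI* in the left tail. *NimC1* is not drawn because it was not tested.

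To compare the knockdowns, genes with low counts were removed, and the GAF knockdown was set over the Mi-2 knockdown in 1 edgeR fit across all genes. A call is an adjusted p under 0.1, and a positive log2 fold change is a higher value in the GAF knockdown. Of the 10 hemocyte genes, 9 passed the filter, and *Sr-CI* passed it only through its counts in the GAF knockdown. The test called 3 of the 10 higher and 0 lower. Over all 7826 genes it called 9.46%, with 3.40% higher and 6.06% lower. Since *Sr-CI* had to differ to pass the filter, its p is not used, and the counts that follow are over the 8 other genes tested. DESeq2 called the same 3 higher and 0 lower, and over all genes it called 11.3%, with 4.34% higher and 6.93% lower. At an unadjusted p under 0.05 there were 4 of the 8, the added one being *drpr*, which was lower, beside 20.1% of all genes tested. Both GAF knockdown libraries lay above or below both Mi-2 knockdown libraries in 6 of the 8 genes, beside 52.6% of all genes tested.

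**Figure D3:**
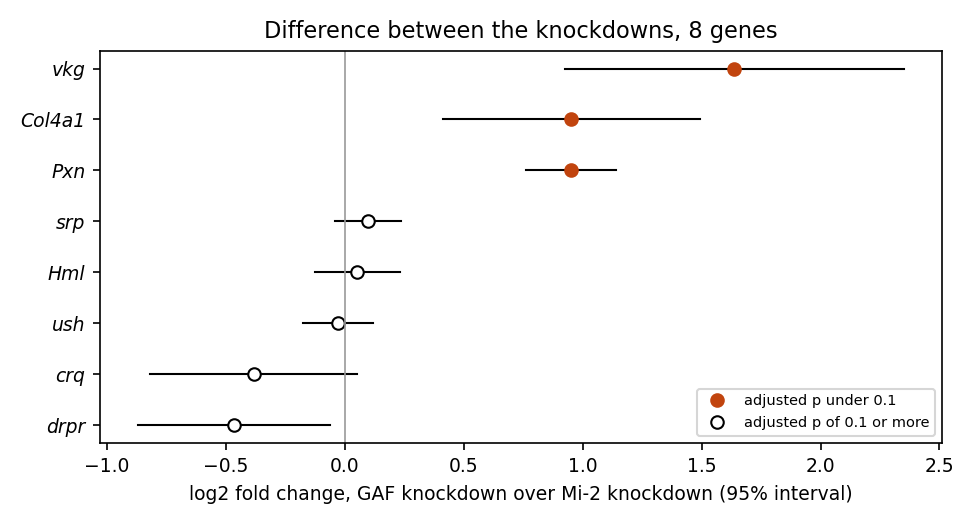
Log2 ratio (GAF knockdown over Mi-2 knockdown) of 8 hemocyte genes, with 95% intervals from the edgeR fit. Filled points have an adjusted p under 0.1. *vkg* (1.64), *Col4a1* (0.95) and *Pxn* (0.95) lie to the right of 0 with their whole intervals, and the intervals of *srp*, *Hml* and *ush* include 0.

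The called genes were the collagen IV genes and the gene of an enzyme that acts on collagen IV. *Pxn* (FBgn0011828) encodes peroxidasin, an enzyme of the extracellular matrix that crosslinks collagen IV, and is widely used as a plasmatocyte marker. It lies at dm6 chromosome 3L, minus strand, from 2601455 to 2630064, and exons make up 20.8% of its length. *Pxn* had 4115 and 8537 counts in the GAF knockdown and 1393 and 1893 counts in the Mi-2 knockdown. This is 676 ± 4.35 CPM in the GAF knockdown and 342 ± 13.0 CPM in the Mi-2 knockdown (SD, n = 2 each). The libraries of each knockdown were close together, and the groups did not overlap. *Pxn* was 1.93-fold higher in the GAF knockdown (95% interval 1.69 to 2.20), a log2 fold change of 0.95 (standard error 0.0851, adjusted p = 1.98e-04). With each library left out in turn its log2 fold change stayed between 0.94 and 0.97 and was still called. In RNA from whole cultures, fewer transcribing cells and less RNA per cell cannot be told apart.

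*vkg* (viking, FBgn0016075) and *Col4a1* (FBgn0000299) encode the chains of collagen IV, which assemble with each other into the trimers of the basement membrane. They lie head to head on chromosome 2L, *vkg* on the minus strand from 5012144 to 5028191 and *Col4a1* on the plus strand from 5029609 to 5037279, with 1417 bp and no other gene row between them. Reads were counted by strand, and neither gene shares its body with another gene on its strand. *vkg* had 205 and 325 counts in the GAF knockdown and 31 and 60 counts in the Mi-2 knockdown, or 33.5 and 25.9 CPM in the GAF knockdown and 7.81 and 10.6 CPM in the Mi-2 knockdown. It was 3.11-fold higher in the GAF knockdown (95% interval 1.90 to 5.10), a log2 fold change of 1.64 (standard error 0.320, adjusted p = 0.0148). *Col4a1* had 256 and 460 counts in the GAF knockdown and 77 and 114 counts in the Mi-2 knockdown, or 41.9 and 36.6 CPM in the GAF knockdown and 19.4 and 20.1 CPM in the Mi-2 knockdown. It was 1.94-fold higher in the GAF knockdown (95% interval 1.33 to 2.81), a log2 fold change of 0.95 (standard error 0.243, adjusted p = 0.0496). Neither gene overlapped between the groups. Each call was lost when a GAF knockdown library was left out, with the direction kept. Without GAF knockdown replicate 2 the log2 fold change was 1.45 for *vkg* (adjusted p = 0.202) and 0.86 for *Col4a1* (adjusted p = 0.396), and without replicate 3 it was 1.81 for *vkg* (adjusted p = 0.104) and 1.04 for *Col4a1* (adjusted p = 0.221).

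Ratios of counts within a library do not depend on how libraries are scaled. *Pxn* had 0.448 and 0.488 counts for each count of *Hml* in the GAF knockdown and 0.270 and 0.234 in the Mi-2 knockdown. Against *srp* the ratio of *Pxn* was 0.328 and 0.338 in the GAF knockdown and 0.189 and 0.180 in the Mi-2 knockdown. Both ratios of *Pxn* were higher in the GAF knockdown libraries, without overlap and with no test of their own. The ratio of *Col4a1* to *Pxn* was 0.0622 and 0.0539 in the GAF knockdown and 0.0553 and 0.0602 in the Mi-2 knockdown, and the groups overlapped. For the collagen chains the ratio to each other did not overlap between the groups. There were 0.801 and 0.707 *vkg* counts for each *Col4a1* count in the GAF knockdown and 0.403 and 0.526 in the Mi-2 knockdown, and this difference was not tested.

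**Figure D4:**
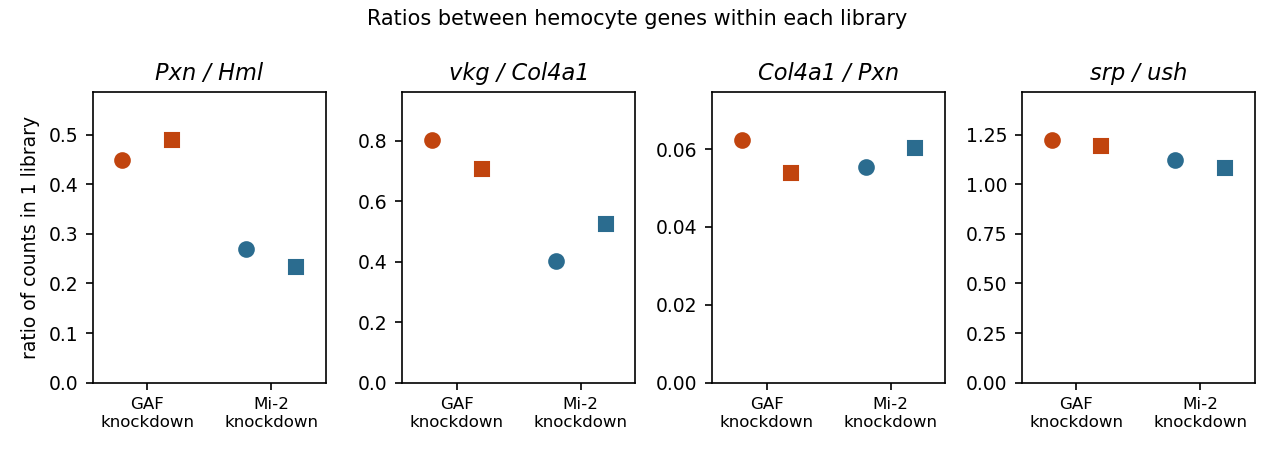
Ratios of counts between pairs of hemocyte genes within each library, on axes that start at 0, with GAF knockdown libraries in orange and Mi-2 knockdown libraries in blue. In each group the circle is the lower replicate number. The ratios of *Pxn* to *Hml* and of *vkg* to *Col4a1* are higher in the GAF knockdown without overlap, and that of *Col4a1* to *Pxn* overlaps.

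The regulators did not pass the test, and their differences were small. *srp* (serpent, FBgn0003507), the GATA factor of the hemocyte lineage, lies on chromosome 3R, plus strand, from 15986152 to 16004085. The annotation places 41.7% of it under *lncRNA:CR44133* on the same strand, and 10449 bp are its own. *srp* had 2050 and 2012 CPM in the GAF knockdown and 1858 and 1846 CPM in the Mi-2 knockdown. The groups did not overlap, but the log2 fold change of 0.10 (standard error 0.0625, adjusted p = 0.438) was not called. The interval of the ratio ran from 0.972-fold to 1.18-fold. *ush* (u-shaped, FBgn0003963), a zinc finger cofactor of GATA factors, spans 64341 bp on chromosome 2L, plus strand, from 476220 to 540560, and exons make up 10.4% of it. It had 1686 and 1688 CPM in the GAF knockdown and 1657 and 1702 CPM in the Mi-2 knockdown, with overlapping groups. Its log2 fold change was -0.03 (standard error 0.0659, adjusted p = 0.865), with an interval from 0.886-fold to 1.09-fold. The values of both depended on a correction for gene length. With the trend of the libraries on gene length removed, *srp* (log2 fold change 0.20, adjusted p = 0.0841) and *ush* (0.26, adjusted p = 0.0358) were called higher in the GAF knockdown, and the sign of *ush* turned. The ratio of *srp* to *ush* counts was 1.22 and 1.19 in the GAF knockdown and 1.12 and 1.08 in the Mi-2 knockdown.

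*Hml* (hemolectin, FBgn0029167) encodes a large secreted clotting protein that marks plasmatocytes. It lies on chromosome 3L, plus strand, from 13846054 to 13860001, and exons make up 84.3% of it. *Hml* had 1504 and 1392 CPM in the GAF knockdown and 1302 and 1422 CPM in the Mi-2 knockdown, and the groups overlapped. Its log2 fold change of 0.05 (standard error 0.0800, adjusted p = 0.782) was not called, with an interval from 0.917-fold to 1.17-fold. *Hml* and *Pxn*, both secreted plasmatocyte markers, thus had different values in the same comparison, with intervals that do not meet.

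The receptors for dying cells were lower in both GAF knockdown libraries but were not called. *crq* (croquemort, FBgn0015924), a receptor of the CD36 family for the uptake of apoptotic cells, lies on chromosome 2L, minus strand, from 448254 to 453024. *crq* had 42.9 and 41.9 CPM in the GAF knockdown and 52.9 and 54.9 CPM in the Mi-2 knockdown (log2 fold change -0.38, standard error 0.195, adjusted p = 0.314). *drpr* (draper, FBgn0027594), an engulfment receptor with EGF-like repeats, lies on chromosome 3L, minus strand, from 1715595 to 1731107 and shares 17.1% of its length with *CG18171* and *Oseg4*. It had 53.2 and 49.7 CPM in the GAF knockdown and 74.4 and 64.4 CPM in the Mi-2 knockdown (log2 fold change -0.46, standard error 0.181, adjusted p = 0.182). For both the groups did not overlap. The interval of the ratio ran from 0.567-fold to 1.04-fold for *crq* and from 0.548-fold to 0.958-fold for *drpr*. Without Mi-2 knockdown replicate 2, *drpr* was called lower (log2 fold change -0.54, adjusted p = 0.0746).

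The receptors for microbes were near or under the limit of detection. *Sr-CI* (FBgn0014033), a class C scavenger receptor that binds bacteria, lies on chromosome 2L, plus strand, from 4121702 to 4124153. Its reads numbered 14 and 29 in the GAF knockdown and 0 in both Mi-2 knockdown libraries. This is 2.29 CPM (95% exact binomial interval 1.25 to 3.84) and 2.31 CPM (1.55 to 3.31) in the GAF knockdown. The limit that a count of 0 sets, 3 counts, corresponds to 0.756 CPM in Mi-2 knockdown replicate 1 and 0.528 CPM in replicate 2. The observed mean level of *Sr-CI* in the GAF knockdown was 3.58-fold the mean of these limits. With any library omitted this ratio was 3.04-fold or more. Counting error in the 14 and 29 reads is not part of these ratios, so the true difference may be smaller. *NimC1* (FBgn0259896), the Nimrod receptor by which larval plasmatocytes take up bacteria, lies on chromosome 2L, minus strand, from 13973158 to 13976769. *NimC1* had 0 and 6 counts in the GAF knockdown and 0 and 2 counts in the Mi-2 knockdown, did not pass the filter and was not compared. Nascent RNA of *NimC1*, a defining gene of larval plasmatocytes, was thus close to 0, while that of *srp*, *Hml* and *Pxn* was at high or middle levels.

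No neighbour outside the 10 genes was called, and some of them had large standard errors. The nearest tested genes on both sides of the 10 comprised 18 genes outside the group. Genes that overlap 1 of the 10 were passed over. Gaps ran from 16 bp to 207708 bp (*Dyrk2* beyond *NimC1*), so not all of these genes are close. Of these, 0 were called by edgeR, beside 9.46% of all genes, and 0 by DESeq2, beside 11.3%. At an unadjusted p under 0.05 there were 2, *CG1143* next to *Pxn* and *Gk2* next to *drpr*, beside 20.1% of all genes. The median log2 fold change of the 18 was -0.11. Standard errors reached 1.39 (*CG16985* next to *Pxn*), so for such genes the absence of a call says little. *SelT*, which ends 16 bp from *vkg*, stood at -0.16 on the log2 scale (adjusted p = 0.810), and *CG31650*, 3368 bp beyond *Col4a1*, had -0.04 (adjusted p = 0.959). *crq* and *ush* lie near each other on 2L, with 23195 bp and 5 gene rows between them, and neither was called. Beside *NimC1*, *He*, which encodes the hemocyte surface glycoprotein Hemese and was picked out after its values were seen, had 42 and 105 counts in the GAF knockdown and 28 and 50 in the Mi-2 knockdown (log2 fold change -0.09, adjusted p = 0.947).

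Lists of further genes with these roles were read in the same comparison. Among genes of collagen processing and secreted matrix, 13 of 15 had a row and 10 were tested. *Tig* (tiggrin, an integrin ligand of the matrix) was higher in the GAF knockdown, at 168 ± 12.4 CPM, against 110 ± 0.120 CPM in the Mi-2 knockdown (SD, n = 2 each; log2 fold change 0.57, adjusted p = 0.0331). *Mmp1*, a matrix metalloproteinase, was higher as well (0.30, adjusted p = 0.0706), and *Mmp2*, the other fly matrix metalloproteinase, was lower (-1.11, adjusted p = 0.0366). The genes with the highest CPM per kb, *Glt* (glutactin) and *SPARC*, a collagen-binding protein, had log2 fold changes of -0.01 (adjusted p = 0.977) and 0.34 (adjusted p = 0.214). *Plod* and *PH4alphaEFB*, which hydroxylate collagen before secretion, had 0.06 (adjusted p = 0.802) and -0.23 (adjusted p = 0.316). The median over the 10 was 0.03, beside -0.00242 over all genes tested. The 10 include *Mp*, which passed the filter only through its counts in the Mi-2 knockdown. It had 0 and 20 counts in the GAF knockdown and 14 and 19 in the Mi-2 knockdown. Of the 10, 3 were called, beside 9.46% of all genes, and 4 had an unadjusted p under 0.05, beside 20.1% of all genes.

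Among blood transcription factors and the Pvr pathway, 7 of 12 genes were tested, and the median log2 fold change was 0.20. In the GAF knockdown 2 were higher, beside 3.40% of all genes, and 1 was lower, beside 6.06%. At an unadjusted p under 0.05 there were 4 of the 7, beside 20.1% of all genes, and DESeq2 called 4, beside 11.3%. *Pvf3*, a growth factor ligand of the hemocyte receptor tyrosine kinase Pvr, was higher in the GAF knockdown (0.94, adjusted p = 0.0104), with 119 ± 20.4 CPM there and 60.7 ± 4.32 CPM in the Mi-2 knockdown (SD, n = 2 each). *jumu*, a forkhead factor, was higher (0.64, adjusted p = 0.00582). *zfh1*, a zinc finger homeodomain repressor, was lower (-0.31, adjusted p = 0.0215) and had the highest CPM per kb of the list, followed by *Pvr* itself (0.20, adjusted p = 0.116). The other GATA factor genes tested were *pnr* (0.30, adjusted p = 0.304), which is the nearest tested gene beyond *srp*, and *GATAd* (-0.01, adjusted p = 0.990). *gcm* and *gcm2*, which direct the plasmatocyte fate in the embryo, had 0 counts in every library.

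Among scavenger receptors and opsonins, 6 of 14 genes were tested. Of the 6, 1 was called higher, beside 3.40% of all genes, and 1 lower, beside 6.06%. At an unadjusted p under 0.05 there were 4, beside 20.1% of all genes, and DESeq2 called 3, beside 11.3%. The thioester proteins, which act as opsonins, went both ways, *Tep2* higher (log2 fold change 0.43, adjusted p = 0.0777) and *Tep4* lower in the GAF knockdown (-0.55, adjusted p = 0.00708). *pes*, a CD36 family receptor, had the second highest CPM per kb after *Tep4* (log2 fold change -0.12, adjusted p = 0.539), and the list median was -0.40. The counts over the 6 and this median include *PGRP-LC*, which passed the filter only through its counts in the Mi-2 knockdown. It had 5 and 16 counts in the GAF knockdown and 24 and 15 in the Mi-2 knockdown. All 13 genes of the Draper engulfment pathway were tested, and 0 were called, beside 9.46% of all genes. At an unadjusted p under 0.05 there were 3 of the 13, beside 20.1% of all genes. DESeq2 called 1 of the 13 lower, *mbc*, beside 6.93% of all genes. The highest of them per kb were the small GTPases *Rac1* (0.14, adjusted p = 0.599) and *Cdc42* (-0.09, adjusted p = 0.701), and the median was 0.08. Of 10 further Nimrod family genes 2 passed the filter, both only through their counts in the GAF knockdown, so their p is not used. These were *eater*, a receptor for bacteria, with 26 and 42 counts in the GAF knockdown and 0 and 6 in the Mi-2 knockdown, and *NimB5*, with 11 and 33 counts in the GAF knockdown and 4 and 2 in the Mi-2 knockdown. The Nimrod genes had at most 3 counts in every library for 7 of the 10, among them *NimC4*, which lies wholly under *nAChRalpha5* on the same strand so that its reads could not be assigned.

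**Figure D5:**
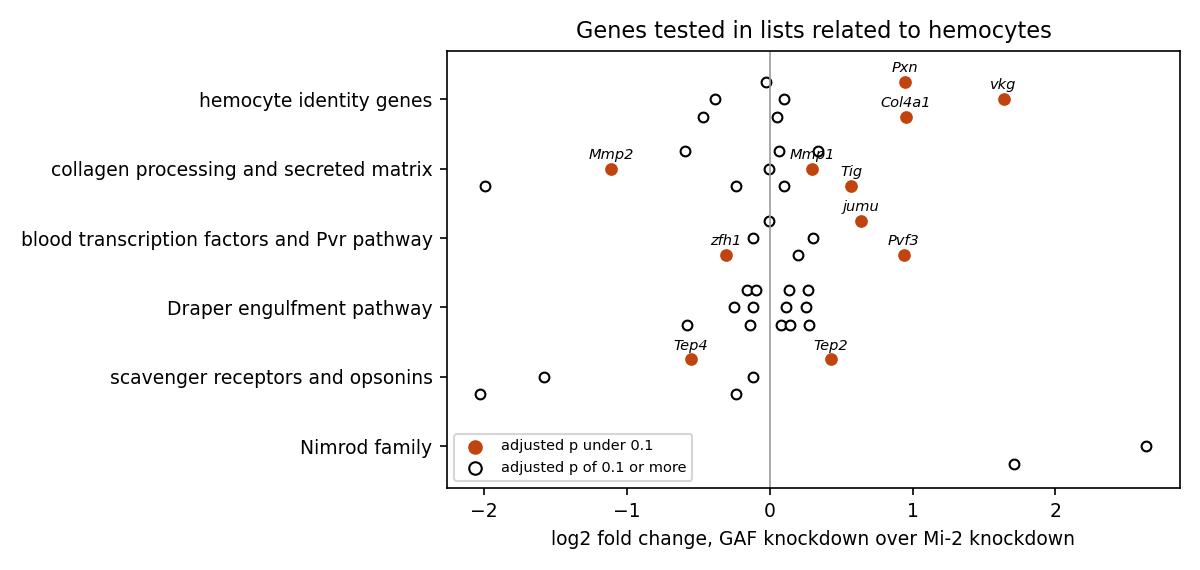
Log2 ratio (GAF knockdown over Mi-2 knockdown) of the tested genes of 6 lists, 1 point per gene, with filled and named points at an adjusted p under 0.1 (heights within a row carry no meaning). *Sr-CI* is left out because it has only a lower bound. The called hemocyte genes lie to the right, the Draper pathway holds no called gene, and the other lists with calls have them on both sides.

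Markers of other cell types were read in the same libraries. The crystal cell genes *PPO1* and *PPO2*, the glial gene *repo* and the fat body genes *Fbp1*, *Fbp2* and *Lsp1alpha* had 0 counts in every library. Summed over 5 crystal cell genes, the level was 8.02 to 10.7 CPM in the GAF knockdown and 1.26 to 2.29 CPM in the Mi-2 knockdown, most of it *peb*, and *lz*, which sets the crystal cell fate, had 11 and 13 counts in the GAF knockdown and 0 in both Mi-2 knockdown libraries. Only *peb* of the 5 was tested. *peb* passed the filter largely through its counts in the GAF knockdown, so its p is not used. The others, *lz* among them, had too few counts for a test. Over 5 lamellocyte genes the sum was 413 to 464 CPM in the GAF knockdown and 502 to 551 CPM in the Mi-2 knockdown. Most of it was the widely expressed filamin gene *cher*, which was lower (log2 fold change -0.33, adjusted p = 0.0799). *mthl4*, next in CPM per kb, went the other way and was not called (0.29, adjusted p = 0.748). Over 4 neuronal genes the sum was 148 to 184 CPM in the GAF knockdown and 328 to 365 CPM in the Mi-2 knockdown. Most of it was *brp*, which was lower, at 102 CPM against 262 CPM in the Mi-2 knockdown (-1.41, adjusted p = 2.65e-04). *elav* was not called (-0.47, adjusted p = 0.237). Nor was *nSyb*, which had few counts and went the other way (0.69, adjusted p = 0.84). Over 3 glial genes the sum was 12.6 to 15.4 CPM in the GAF knockdown and 36.0 to 48.2 CPM in the Mi-2 knockdown. *Gs2* was lower (-1.97, adjusted p = 0.00757), and *moody*, next in level, was not called (-1.06, adjusted p = 0.249). Over 5 epithelial genes the sums overlapped, at 526 to 592 CPM in the GAF knockdown and 535 to 601 CPM in the Mi-2 knockdown, most of it *cora*. The highest per kb, *cora* (0.11, adjusted p = 0.656) and *shg* (0.67, adjusted p = 0.183), were not called, and *crb* (-1.79, adjusted p = 0.0287) and *Nrg* (-2.07, adjusted p = 4.80e-04) were lower. Fat body genes summed to 5.56 to 9.63 CPM in the GAF knockdown and 4.40 to 4.54 CPM in the Mi-2 knockdown, almost all of it *Lsp1beta*. Muscle genes, led by *Mlc2* and *Mhc* per kb, summed to 12.4 to 17.7 CPM in the GAF knockdown and 11.8 to 19.3 CPM in the Mi-2 knockdown. Only 1 of 6 fat body genes and 3 of 5 muscle genes were tested. In both lists 0 were called by edgeR or DESeq2, beside 9.46% and 11.3% of all genes. Both also had 0 at an unadjusted p under 0.05, beside 20.1%. Calls elsewhere were 1 of 2 lamellocyte, 1 of 3 neuronal, 1 of 2 glial and 2 of 5 epithelial genes tested. All were lower, beside 6.06% of all genes. At an unadjusted p under 0.05 these lists had 1, 2, 1 and 3 genes, beside 20.1%. The part of these marker levels in the differences of *Pxn*, *vkg* and *Col4a1* was not tested.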

How the data were processed

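Raw counts per gene were deposited by the authors, with no normalization and no pooling. Per the labels and the methods, reads were trimmed (cutadapt 1.10), mapped to dm6 (HISAT2 2.0.4) and counted on the sense strand over gene bodies (featureCounts 1.5.0-p3), whose default drops reads on more than 1 gene. A second, identical table was not used. Another 6 columns match no sample of the labels and were not used. Values per library are CPM of the library total. Groups were compared with edgeR 4.0.16 (R 4.3.3; filterByExpr, TMM, quasi-likelihood test, Benjamini-Hochberg over 7826 genes, call at adjusted p under 0.1). The standard error is the log2 fold change divided by the root of the F statistic. Alternatives were DESeq2 1.42.0, other scalings, no filter, a stricter threshold, thinning to the smallest library, removal of a gene length trend and leaving out each library. Both tools were tested on simulated data. With 2 libraries against 2, an exact permutation test cannot go below p = 0.333 and was not used. Positions, symbols and overlaps come from Ensembl release 115 on dm6, matching 17464 of 17659 identifiers, while the authors counted on an earlier annotation. Levels per kb need at least 200 bp of unshared length. Named genes are the 10, those of each list that passed or had the 2 highest CPM per kb, and the targeted genes. *Pdi*, *Tango1* and *para* of the lists matched no row by symbol. A few others are named where a sentence turns on them. The 10 genes and the lists were chosen with earlier results of these data known.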

Additional observations from a re-analysis of the deposited data

How the results depend on the processing

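The calls of *Pxn*, *vkg* and *Col4a1* were kept under DESeq2, other scalings, no filter, thinning to the smallest library, removal of the gene length trend and an adjusted p under 0.05. The number of hemocyte genes called higher was 5 with the length trend removed, in place of 3, and the cause was not tested. With each library left out it lay between 1 and 3, lowest without either GAF knockdown replicate 2 or replicate 3, and the number called lower lay between 0 and 1. Over all genes, 266 were called higher and 474 lower. With no filter 494 were higher, and at an adjusted p under 0.05, which is stricter by construction, 128 were higher. With each library left out, between 32 (without GAF knockdown replicate 2; 34 without replicate 3) and 998 (without Mi-2 knockdown replicate 2) were higher, and between 154 (without GAF knockdown replicate 3; 162 without replicate 2) and 818 (without Mi-2 knockdown replicate 2) were lower. Higher calls made up 35.9% of all calls, 47.0% with no filter, 45.6% with library size alone, and 16.5% to 55.0% with libraries left out in turn. Scalings moved the median of all genes by less than 0.1. Signs turned for *ush* and *Hml*. *ush* was 0.26 with the length trend removed, 0.00553 with library size alone, and -0.0635 to 0.0221 with libraries left out in turn, above 0 only without Mi-2 knockdown replicate 2. *Hml* was between -0.0246 and 0.149 with each library left out, and below 0 without GAF knockdown replicate 2 (-0.00269) or Mi-2 knockdown replicate 1. *Sr-CI* could not be fitted when GAF knockdown replicate 3 was left out or the libraries were thinned, since it then failed the filter. No paired analysis was possible because the groups share only 1 replicate number. Depth limits *NimC1* and *Sr-CI*, for which 3 counts are up to 0.756 CPM.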
